A study of Sus scrofa with 6 samples.

Results

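The genes described here are 36 genes of cell proliferation, chosen by symbol, of which 31 could be matched to rows of the deposited tables among 22844 rows in all. They fall into 4 roles. Mitosis holds 19 genes (16 matched), S phase 11 (9 matched), the D cyclins 3 and the CDK inhibitors 3. MKI67, CCNA2, AURKA, PCNA and RRM2 had no row with their symbol and were not analysed here. Total RNA was sequenced from subcutaneous fat of crossbred pigs (Duroc, Landrace and Yorkshire). A control diet gave 3 libraries, and a diet that held resveratrol, a polyphenol of plants, at 400 mg/kg gave 3. Whether the libraries of a diet are separate animals is not stated in the labels. The p-values therefore measure a spread between libraries that may be technical.

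A cell that divides first commits in G1, when D-type cyclins switch on the kinases CDK4 and CDK6 and release E2F transcription factors from the retinoblastoma protein. E2F then drives the genes of DNA replication, and later the mitotic cyclins, kinases and kinesins build the spindle and separate the chromosomes. The CDK inhibitors p21, p27 and p57 hold this engine back. Mature adipocytes do not divide, and in fat the dividing cells are mostly progenitors, endothelial cells and immune cells. In bulk tissue, fewer dividing cells and less RNA per dividing cell cannot be told apart.

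Control 2 was the shallowest library, with 16251536 reads, and resveratrol 2 the deepest, with 37943877 reads. Control 2 stood apart on the first principal component (33.6% of variance). Control 1 and resveratrol 3 lay at opposite ends of the second component (26.6%). Adipocyte markers were high in every library: 6 of 6 were measured, with a summed level of 17060 to 23960 TPM with the control diet and of 20910 to 26530 TPM with resveratrol. TPM is the deposited transcript level, scaled for transcript length and library total. The 3 measured skeletal muscle markers summed to at most 1.40 TPM, and the keratinocyte gene KRT1 had no read in any library.

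Mitotic genes were scarce, replication genes somewhat more abundant, and the D cyclins and CDK inhibitors far higher. The mean level over the 6 libraries had a median of 1.40 TPM over the 14 tested mitotic genes, 2.89 TPM over the 9 S phase genes, 15.05 TPM over the D cyclins and 49.9 TPM over the CDK inhibitors. Over all 14908 rows tested the median was 8.53 TPM, and over 26 further genes of G1 control, listed apart from the members, 10.4 TPM. In TPM, CCND3 lay at 11.6 times the level of the mitotic cyclin CCNB1. CDK4, the kinase partner of the D cyclins, lay at 30.9 times that of the mitotic kinase CDK1. The order of the genes by level is plotted by library.

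**Figure D1:**
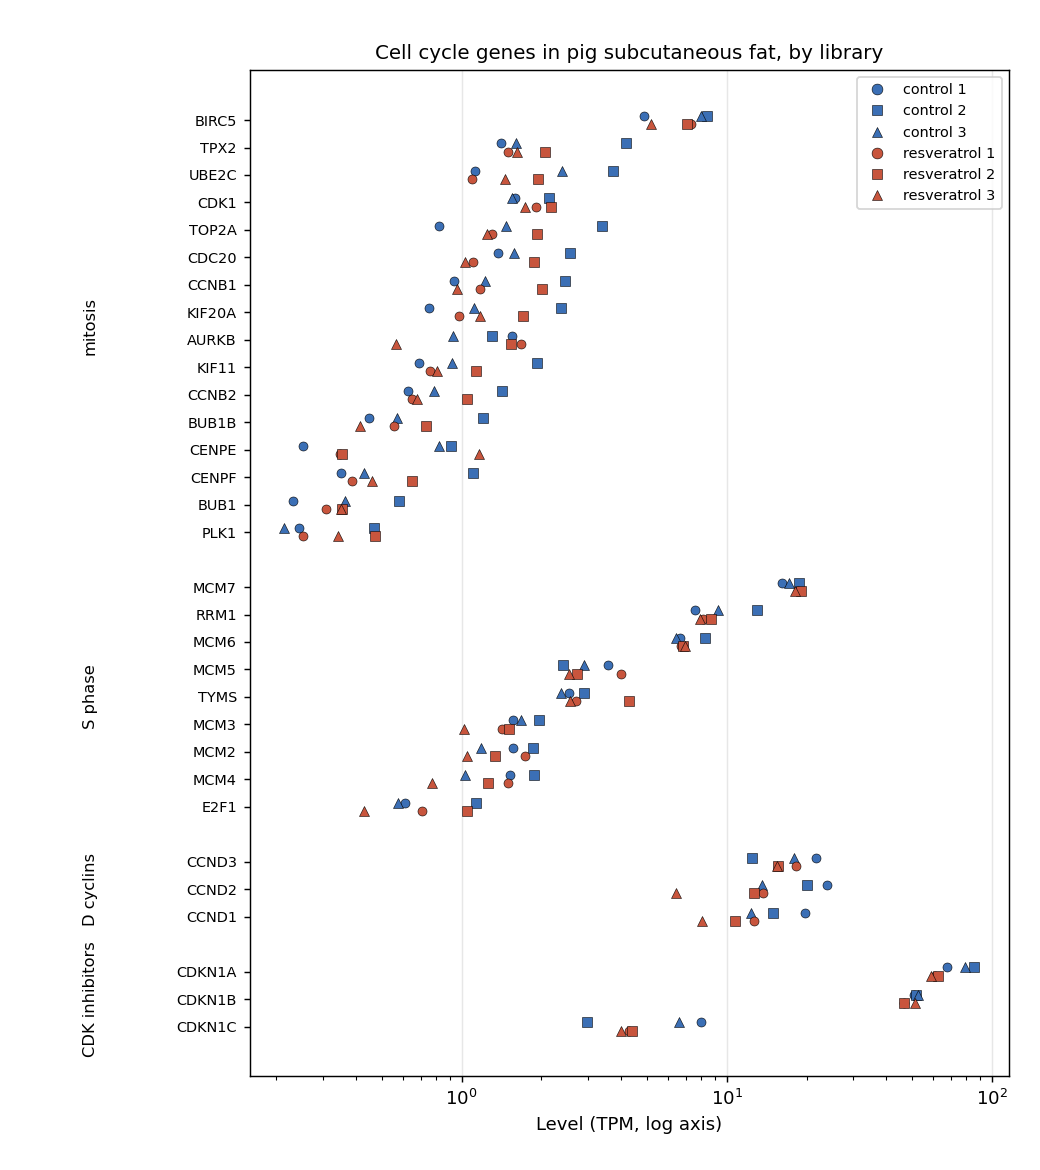
Levels of the 31 matched genes in each library, in TPM on a log axis, grouped by role and ordered by mean within a role. Blue marks are control and red marks resveratrol libraries, with circle, square and triangle for libraries 1, 2 and 3. Control 2 (blue squares) lies to the right in most mitotic genes, while blue and red overlap in 29 of the 31 rows.

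The comparison asked which of these genes differed between the diets. None of the 29 tested members passed edgeR's quasi-likelihood test at a Benjamini-Hochberg adjusted p under 0.05. Over all rows the share was 0%, and 973 rows (6.53%) had an unadjusted p under 0.05, in either direction. The smallest adjusted p of a member was 0.733. In sign, 21 of the 29 members were lower in resveratrol (72.4%), against 51.2% of all rows, at a median log2 fold change of -0.12. Without control 2, 16 of the 29 were lower, at a median of -0.0071. At an unadjusted p under 0.05, CCND1 and CCND2 were lower in resveratrol and no member was higher. These 2 of 29 are 6.90% of the members, against 4.32% of all rows that were lower and 2.21% that were higher at that p. With counts scaled by library totals alone the balance of all rows was the other way, with 339 lower and 605 higher at that p, 0 members lower, and 15 of 29 members lower in sign. DESeq2 called 40 of all rows (0.268%), none of them a member, and its smallest adjusted p for a member was 0.510. TPM of the groups did not overlap in MCM3 and CDKN1A, both lower in resveratrol, which is 6.90% of the members against 8.15% of all rows in that direction. No member did so in the higher direction, against 4.11% of all rows. Over both directions 12.3% of all rows did not overlap in TPM. On TPM the share of members was thus near the background in the lower direction and below it in the higher direction and over both. On CPM, the read counts of a library at a common depth, with TMM scaling (a trimmed mean of log ratios between libraries), 4 members did not overlap in the lower direction (CCND1, CCND2, MCM3 and CDKN1A), or 13.8% against 6.97% of all rows, and CDK1 and MCM7 did not overlap in the higher direction, or 6.90% against 5.67%. Over both directions the share of all rows was 12.6%.

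**Figure D2:**
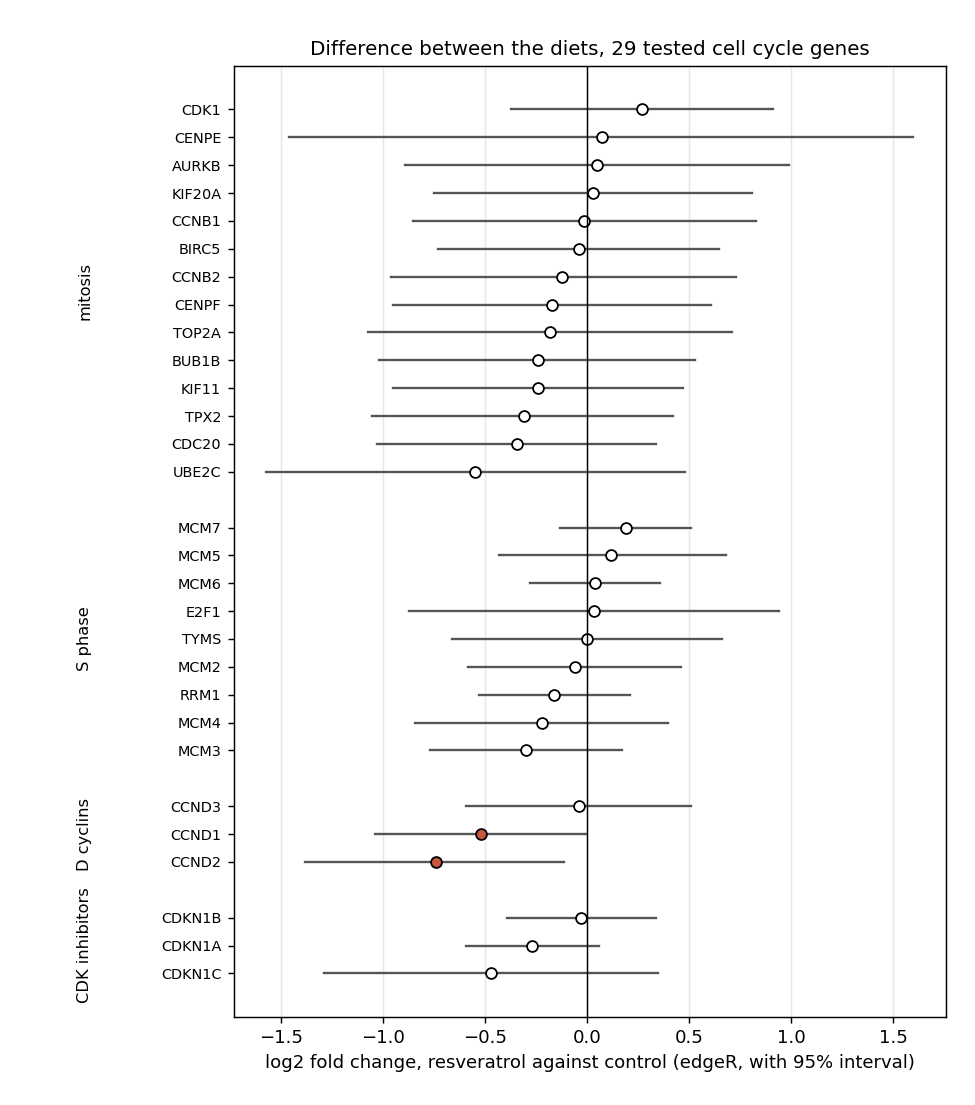
Log2 fold change of resveratrol against control for the 29 tested genes, from edgeR, with 95% intervals as bars; filled points have an unadjusted p under 0.05. The intervals of 27 of the 29 genes span 0, and those of CCND1 and CCND2 end just below it.

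Mitotic genes did not differ detectably by diet, and the spread within the control group was larger than the distance between the groups. The summed level of the 16 matched genes was 17.3, 38.1 and 23.9 TPM in the control libraries 1, 2 and 3, against 21.3, 27.0 and 19.1 TPM with resveratrol. Control 2 was highest and control 1 lowest, with all 3 resveratrol libraries between them. The median log2 fold change of the 14 tested genes was -0.14, with 10 lower and 4 higher, beside -0.0075 over all rows.

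TPX2 (ENSSSCG00000007235.3), a spindle assembly factor, measured 1.41, 4.16 and 1.61 TPM on the control diet, against 1.495, 2.05 and 1.62 TPM with resveratrol. Control 2 exceeded every other library, and the remaining libraries differed little, and the log2 fold change was -0.31 (SE 0.33). UBE2C (ENSSSCG00000007423.3), the ubiquitin-conjugating enzyme of the anaphase-promoting complex, measured 1.13, 3.73 and 2.39 TPM on the control diet, against 1.09, 1.94 and 1.45 TPM with resveratrol. Its log2 fold change of -0.55 (SE 0.46) was the most negative of the mitotic genes and rested on only 19 to 41 reads per library. CDC20, the activator of that complex, measured 1.37, 2.57 and 1.57 TPM on the control diet, against 1.10, 1.87 and 1.03 TPM with resveratrol. Here too the library numbered 2 was highest in each group, and the log2 fold change was -0.34 (SE 0.31).

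KIF11, the kinesin that separates the spindle poles, measured 0.691, 1.93 and 0.919 TPM on the control diet, against 0.759, 1.13 and 0.807 TPM with resveratrol. The groups overlapped, with a log2 fold change of -0.24 (95% interval -0.95 to 0.47). CDK1 (ENSSSCG00000010214.3), the kinase that starts mitosis, measured 1.59, 2.14 and 1.54 TPM on the control diet, against 1.91, 2.18 and 1.73 TPM with resveratrol. It had the highest log2 fold change of the mitotic genes, 0.27 (SE 0.29, unadjusted p = 0.376). BIRC5, the survivin subunit of the chromosomal passenger complex, was the most abundant in TPM but not in reads. It had 43 to 95 reads per library, against 207 to 593 for TOP2A. BIRC5 measured 4.88, 8.41 and 7.97 TPM on the control diet, against 7.32, 7.07 and 5.16 TPM with resveratrol. The lowest values of both groups were near each other, and the log2 fold change was -0.038 (SE 0.31). AURKB, the kinase of the same complex, had one of 0.051 (SE 0.42).

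The mitotic cyclins CCNB1 and CCNB2 differed by -0.014 (SE 0.38) and -0.12 (SE 0.38) in log2 fold change. TOP2A, the topoisomerase that untangles chromosomes, had one of -0.18 (SE 0.39), the centromere protein CENPF one of -0.17 (SE 0.35), and KIF20A, a kinesin of cytokinesis, one of 0.031 (SE 0.35). BUB1B, a kinase-like protein of the spindle checkpoint, had one of -0.24 (SE 0.35). BUB1 and PLK1, kinases of the checkpoint and of mitotic entry, averaged 0.364 and 0.331 TPM and lay just under the filter of 0.5 TPM. With a filter of 0.1 TPM their log2 fold changes were -0.054 (SE 0.35) and 0.36 (SE 0.44). The 95% interval of the log2 fold change spanned 0 in all 14 tested mitotic genes. The narrowest, that of CDK1, ran from -0.37 to 0.91.

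CENPE, the kinesin that brings chromosomes to the spindle equator, had a pattern of its own and is named after its values were seen. It measured 0.252, 0.915 and 0.819 TPM on the control diet, against 0.347, 0.353 and 1.16 TPM with resveratrol. It was highest in resveratrol 3, with 650 reads, a library in which the summed level of mitotic genes was the lowest of the resveratrol libraries. Its log2 fold change of 0.072 had the widest interval of all members, from -1.46 to 1.6.

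Control 2 led the mitotic genes on both scales. It held the highest TPM in 11 of 14 tested mitotic members (78.6%), against 47.8% of all rows. On TMM-scaled CPM it was highest in 10 of 14 (71.4%), against 28.1% of all rows. On that scale the median mitotic gene stood at 1.79 times the mean of the other control libraries, and the median of all rows at 0.987 times. TOP2A, which was named after its values were seen, measured 0.823, 3.37 and 1.47 TPM in control 1, 2 and 3. Resveratrol 2 was likewise the highest resveratrol library in 11 of 14 mitotic genes on scaled CPM, against 33.9% of all rows, at a median of 1.43 times the mean of the other resveratrol libraries. A single library has no replicate, so these values describe the library and carry no test.

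Of 32 other mitotic genes, 29 matched and 21 were tested, and control 2 was highest in 18 by TPM and in 14 by scaled CPM (66.7%). Among the cell type markers, endothelial genes (4 of 5) summed to 259 TPM in control 2. Control 1 and 3 had 193 and 236 TPM, and the resveratrol libraries 189 to 207 TPM. In TPM, PECAM1, CDH5 and KDR were highest in control 2, and TEK in resveratrol 1. On scaled CPM, PECAM1 and CDH5 were highest in control 3, and KDR and TEK in resveratrol 3. Their log2 fold changes differed in sign, at -0.22 for PECAM1, -0.29 for CDH5, 0.26 for KDR and 0.40 for TEK. Pericyte and smooth muscle genes (5 of 5) summed to 620 TPM in control 2 and 749 TPM in resveratrol 2. Those were the highest libraries of their groups, with between 263 and 534 TPM elsewhere. Among the control libraries, RGS5, ACTA2 and MYH11 were highest in control 2, but PDGFRB and TAGLN were highest in control 1. The 9 of 9 macrophage genes summed to 416 to 493 TPM on the control diet, against 513 to 759 TPM with resveratrol, and the 9 of 10 lymphocyte genes to 17.1 to 20.1 TPM and 15.7 to 32.8 TPM. Both of these were highest in resveratrol 1, where the mitotic sum was 21.3 TPM. The part of these cell types in the mitotic pattern was not tested.

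**Figure D3:**
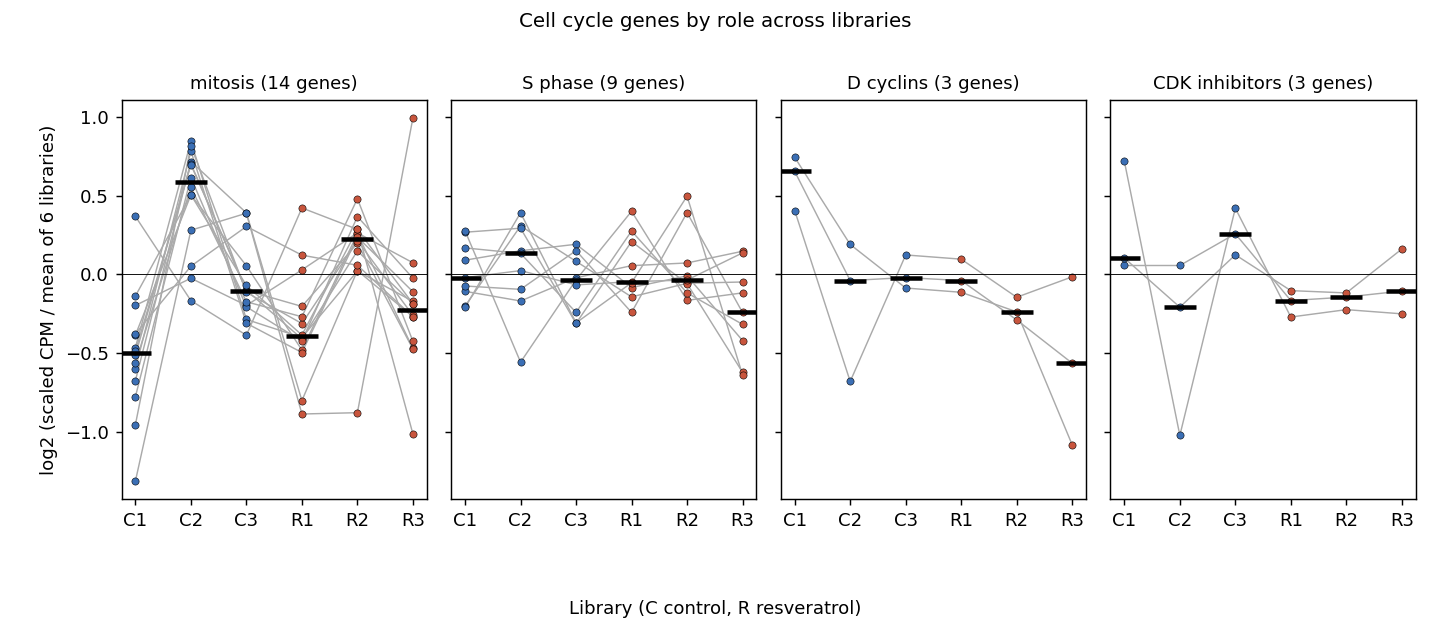
TMM-scaled CPM of each tested gene relative to its mean over the 6 libraries, on a log2 axis, by role; points are genes, grey lines join a gene across libraries (C control, R resveratrol), and black bars are medians. Mitotic genes are high in control 2 and, less so, in resveratrol 2, S phase genes stay nearer to 0, and the D cyclin median is highest in control 1 and lowest in resveratrol 3.

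Leaving out control 2 turned the direction of the mitotic group. Its median log2 fold change went from -0.14 to 0.18, with 10 genes higher and 4 lower, and no mitotic gene had an unadjusted p under 0.05. Among all members 2 did, CCND1 and CDKN1C, both lower (6.90%). Of all rows, 5.69% were lower and 2.56% higher at that p in this fit, and 5 rows (0.0335%), none of them a member, passed edgeR's adjusted threshold. Without control 1 the median was -0.36, and without resveratrol 2 it was -0.36. The sign of the mitotic median thus depended on control 2.

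**Figure D4:**
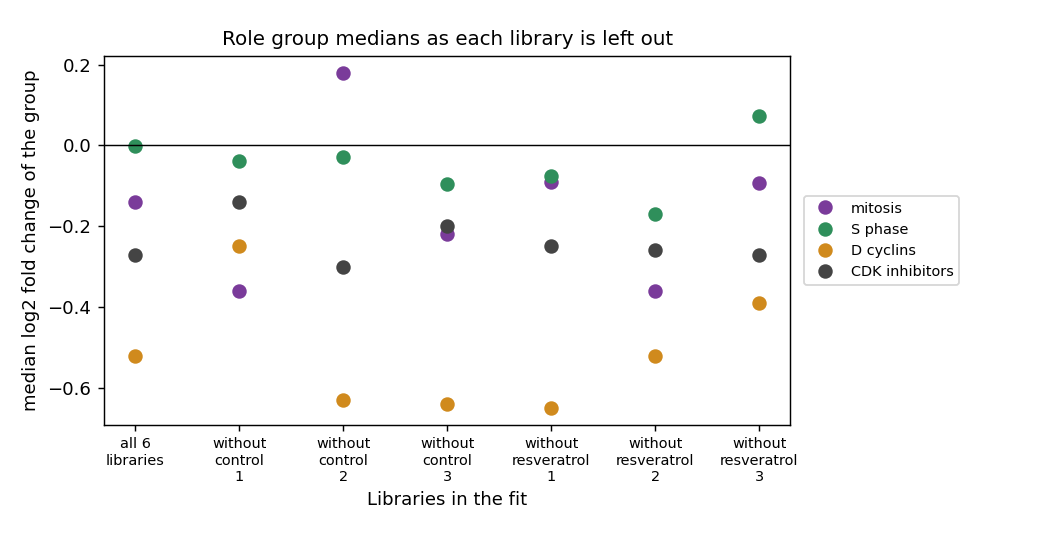
Median log2 fold change of each role group (points) with all 6 libraries and with each library left out. The mitotic median is 0.18 without control 2 and below 0 in the other fits, and the D cyclin median stays between -0.65 and -0.25.

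S phase genes were centred on no difference, with a median log2 fold change of -0.00088, 5 genes lower and 4 higher. Their summed level was 41.8, 52.2 and 42.6 TPM on the control diet, against 45.5, 46.7 and 41.3 TPM with resveratrol. Control 2 was again highest in TPM, in 6 of 9 genes, but in only 2 of 9 (22.2%) on scaled CPM, which is below the 28.1% of all rows.

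The subunits MCM2 to MCM7 form the ring-shaped helicase that opens DNA at replication origins. Their mRNA levels were far apart. MCM7 averaged 17.95 TPM over the 6 libraries and MCM6 6.98 TPM, which is 13.5 and 5.26 times the 1.33 TPM of MCM4. MCM7 (ENSSSCG00000032180.1) measured 16.2, 18.7 and 17.2 TPM on the control diet, against 18.6, 19.0 and 18.1 TPM with resveratrol. It varied little, and its log2 fold change was 0.19 (95% interval -0.13 to 0.51). MCM6 measured 6.69, 8.28 and 6.45 TPM on the control diet, against 6.71, 6.83 and 6.95 TPM with resveratrol. Only control 2 stood off in TPM. On scaled CPM it did not, at 29.6, and resveratrol 3 was highest, at 32.0. The log2 fold change was 0.04 (SE 0.15).

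MCM3 (ENSSSCG00000025488.2) measured 1.56, 1.96 and 1.68 TPM on the control diet, against 1.42, 1.51 and 1.02 TPM with resveratrol. Every resveratrol library lay below every control library, at a log2 fold change of -0.30 (SE 0.21, unadjusted p = 0.183). MCM4 measured 1.53, 1.87 and 1.03 TPM on the control diet, against 1.5, 1.26 and 0.775 TPM with resveratrol. The groups overlapped, at a log2 fold change of -0.22 (SE 0.28). MCM5 measured 3.56, 2.42 and 2.90 TPM on the control diet, against 3.99, 2.73 and 2.54 TPM with resveratrol. It was highest in library 1 of each group, with a log2 fold change of 0.12 (SE 0.25). MCM2 had one of -0.06 (SE 0.24).

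RRM1 (ENSSSCG00000014791.3), the large subunit of the ribonucleotide reductase that makes deoxynucleotides, measured 7.59, 13.0 and 9.24 TPM on the control diet, against 8.10, 8.69 and 7.89 TPM with resveratrol. Control 2 alone was set apart, and the log2 fold change was -0.16 (SE 0.17). TYMS, the thymidylate synthase, was higher with resveratrol in mean TPM but not on counts, and is named after its values were seen. Mean TPM was 2.60 ± 0.273 on the control diet and 3.19 ± 0.958 with resveratrol (SD, n = 3 each). Only resveratrol 2, at 4.29 TPM, lay above all control libraries, with 2.71 and 2.56 TPM in resveratrol 1 and 3. Resveratrol 2 was also the highest library on scaled CPM, at 3.77. The counts of TYMS gave a log2 fold change of -0.00088 (SE 0.30). The ratio of unscaled CPM to TPM was not constant for TYMS, at 1.22 in control 3 and 0.873 in resveratrol 2. For MCM7 that ratio was lowest in control 3, at 3.35, and 3.56 in resveratrol 2. E2F1, the transcription factor of the G1/S switch, was the scarcest S phase gene, at 0.772 ± 0.312 against 0.726 ± 0.308 TPM (SD, n = 3 each), with 31 to 75 reads per library.

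Of the D cyclins, CCND2 had the lowest log2 fold change of all members, CCND1 was also lower at an unadjusted p under 0.05, and CCND3 was not. CCND2 (ENSSSCG00000038694.1) measured 23.9, 20.04 and 13.5 TPM on the control diet, against 13.7, 12.7 and 6.43 TPM with resveratrol. Control 3 lay just under resveratrol 1, and the other libraries did not overlap. The log2 fold change was -0.74 (SE 0.29, 95% interval -1.38 to -0.11), with an unadjusted p = 0.0260 and edgeR's adjusted p = 0.733. CCND1 (ENSSSCG00000037900.1) measured 19.65, 14.98 and 12.4 TPM on the control diet, against 12.7, 10.8 and 8.03 TPM with resveratrol. Again only control 3 and resveratrol 1 crossed, and the log2 fold change was -0.52 (SE 0.23, unadjusted p = 0.0494, edgeR's adjusted p = 0.733). CCND3 measured 21.6, 12.5 and 17.9 TPM on the control diet, against 18.2, 15.6 and 15.4 TPM with resveratrol. Control held both its highest and its lowest library, and the log2 fold change was -0.039 (95% interval -0.59 to 0.51).

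Control 1 was the highest and resveratrol 3 the lowest library for both CCND1 and CCND2, and the unadjusted p depended on both. Of all rows, control 1 was highest in TPM in 13% and resveratrol 3 lowest in 33%. Without control 1 the log2 fold change was -0.48 for CCND2 (unadjusted p = 0.121) and -0.25 for CCND1 (unadjusted p = 0.275). Without resveratrol 3 the unadjusted p-values were 0.0971 and 0.179, and without control 2 they were 0.0521 and 0.0268. They were 0.0365 and 0.106 without resveratrol 2, 0.0119 and 0.0289 without control 3, and 0.0181 and 0.0383 without resveratrol 1. The replicate block gave 0.00272 and 0.0226 (edgeR's adjusted p = 0.460 and 0.536). Control 1 was also the library with the most transcripts of tendon and cartilage: the 5 of 5 marker genes summed to 101.5 TPM there, to 7.496 and 24.7 TPM in control 2 and 3, and to 3.18 to 5.13 TPM in resveratrol. Stromal progenitor genes (4 of 5) summed to 100.5 TPM in control 1 and to between 58.4 and 89.0 TPM elsewhere, with resveratrol 3 lowest. In TPM, PI16 and CD34 were highest in control 1, but PDGFRA and DPP4 were highest in control 2. PDGFRA and CD34 were lowest in resveratrol 3, PI16 in control 2 and DPP4 in control 3. On scaled CPM, PDGFRA was highest in resveratrol 1, and the other genes as in TPM. There PDGFRA and DPP4 were lowest in control 3, and PI16 and CD34 in control 2. CCND1 and CCND2 were lowest in resveratrol 3 on that scale too. The part of these cells in the D cyclin values was not tested.

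**Figure D5:**
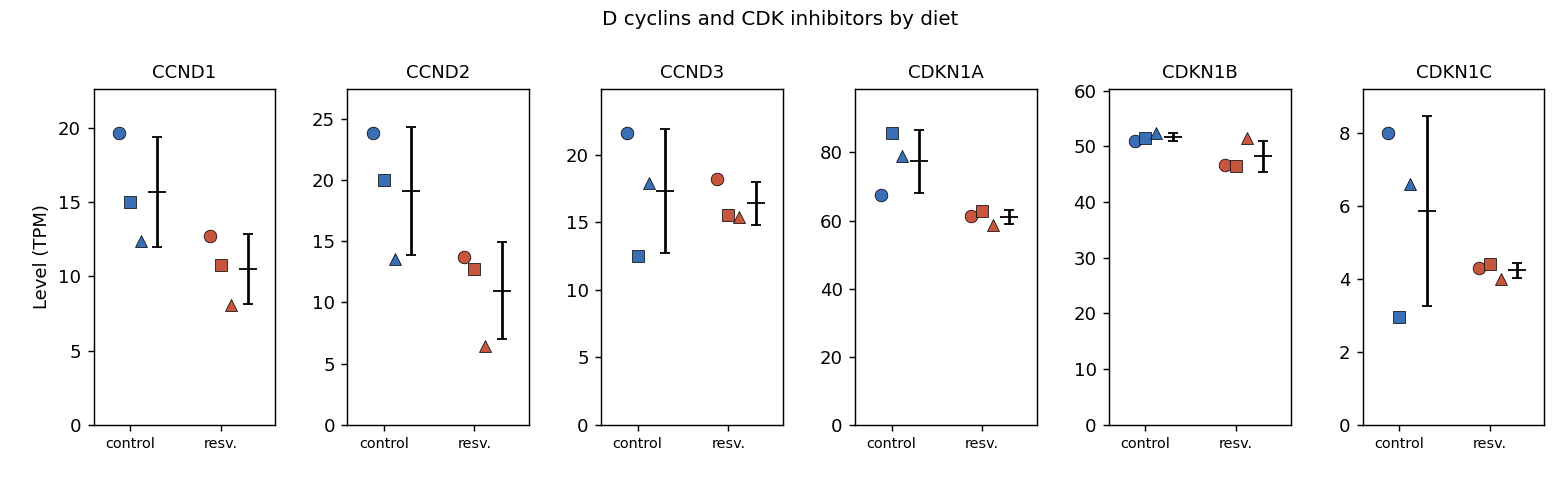
TPM of the D cyclins and CDK inhibitors in each library (circle, square and triangle for libraries 1, 2 and 3) with mean and SD of 3 libraries per diet beside them; each axis starts at 0. The CDKN1A groups do not overlap, at 67.4 to 85.8 against 58.8 to 62.8 TPM, and control 2 is the lowest library for CDKN1C and CCND3.

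CDKN1A and CDKN1B were the most abundant members in TPM. On CPM, which is not scaled for transcript length, MCM7 and RRM1 were higher. Their control means were 60.6 and 37.9 on TMM-scaled CPM, against 31.6 for CDKN1A and 32.4 for CDKN1B. CDKN1A (ENSSSCG00000001565.3), which encodes p21, the inhibitor induced by p53, measured 67.4, 85.8 and 78.9 TPM on the control diet, against 61.2, 62.8 and 58.8 TPM with resveratrol. All control libraries lay above all resveratrol libraries, and the latter were close together. The mean was 77.4 ± 9.27 against 60.95 ± 2.04 TPM (SD, n = 3 each). On counts the log2 fold change was -0.27 (95% interval -0.59 to 0.060), with an unadjusted p = 0.0990 and edgeR's adjusted p = 0.733, so the difference did not pass.

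CDKN1B, which encodes p27, the inhibitor of resting cells, varied little. It measured 50.9, 51.6 and 52.5 TPM on the control diet, against 46.7, 46.5 and 51.5 TPM with resveratrol. The log2 fold change was -0.029, with a 95% interval of -0.39 to 0.34. CDKN1C (ENSSSCG00000040461.1), which encodes p57, an imprinted inhibitor, measured 8.01, 2.97 and 6.61 TPM on the control diet, against 4.29, 4.41 and 3.997 TPM with resveratrol. The resveratrol libraries were nearly equal, and control 2, with 45 reads, lay below them while the other control libraries lay above. Its log2 fold change was -0.47 (SE 0.37). Without control 2 it was -0.82 (unadjusted p = 0.00344, edgeR's adjusted p = 0.329). It was -0.14 without control 1 (unadjusted p = 0.716) and -0.36 without control 3 (unadjusted p = 0.414). With a resveratrol library left out it was -0.46 to -0.48, at an unadjusted p of 0.308 to 0.331.

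The wider pathway was read from 94 further cell cycle genes, of which 85 matched and 69 were tested. None passed edgeR's adjusted threshold, and none passed in DESeq2. At an unadjusted p under 0.05, 2 were lower (WEE1 and KIF4A) and 1 was higher (CDK4), which is 2.90% and 1.45%, against 4.32% and 2.21% of all rows. With a library left out, 0 to 3 were lower and 0 to 5 higher, the 5 without control 2, and library totals alone gave 0 lower and 1 higher. Their median log2 fold change was -0.16 for mitosis (21 genes), -0.032 for S phase (22 genes) and -0.039 for G1 control (26 genes).

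WEE1, the kinase that restrains CDK1, measured 3.83, 4.76 and 3.23 TPM on the control diet, against 2.83, 2.79 and 2.28 TPM with resveratrol. The groups did not overlap, and the log2 fold change was -0.48 (SE 0.18, unadjusted p = 0.0247, edgeR's adjusted p = 0.733). KIF4A, a chromosome-bound kinesin, had one of -0.55 (SE 0.25, unadjusted p = 0.0484), which was -0.27 without control 2 (unadjusted p = 0.202). The unadjusted p also rose above 0.05 without resveratrol 1 or 3 for KIF4A, and without control 1 or any resveratrol library for WEE1, up to 0.138 and 0.0846. GADD45G, a stress-induced growth regulator, had one of -0.53 (SE 0.26), and CDK2, the kinase of S phase entry, one of -0.30 (SE 0.15).

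In the higher direction CDK4 measured 50.8, 58.0 and 48.9 TPM on the control diet, against 65.9, 61.3 and 58.6 TPM with resveratrol. Every resveratrol library lay above every control library, at a log2 fold change of 0.32 (SE 0.14, unadjusted p = 0.0489, edgeR's adjusted p = 0.733). The unadjusted p was 0.0499 without control 2 and between 0.0674 and 0.146 without any other library, and 0.154 in limma on log2 TPM. CCNG1, a cyclin induced by p53, had one of 0.35 (SE 0.18), LIN37, a subunit of the DREAM repressor complex, one of 0.32 (SE 0.17), and GINS4, a subunit of the replicative helicase, one of 0.45 (SE 0.30).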

How the data were processed

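RNA of 6 libraries was sequenced after a long non-coding RNA kit, per the labels' protocols. The deposited table of each library, made by the authors, gives a read count and a TPM value per gene, per the file headers, and depth was 16251536 to 37943877 reads. The submitters' processing notes name Bowtie 0.12.2 and mouse builds, while rows carry pig identifiers; no counting program, strand setting or pig annotation is named in the sources used here, so reads of overlapping genes and paralogs may be shared. Symbols came from a table of gene identifiers (14750 of 22844 rows matched).

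The 14908 rows that averaged 0.5 TPM or more were kept. Counts were scaled by TMM and compared by edgeR 4.0.16 (quasi-likelihood test, robust; R 4.3.3), resveratrol against control, with Benjamini-Hochberg adjustment over all rows and a threshold of 0.05. The biological coefficient of variation was 0.235. SE is the log2 fold change over the square root of F, and intervals are 95%. The fit was tested on simulated data. Alternatives used limma 3.58.1 on log2 TPM, DESeq2 1.42.0, other scalings and filters, a replicate block and each library left out.

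The members and lists were chosen with earlier results of these data known. Per-library values are given for the 5 mitotic and 5 S phase members with the smallest unadjusted p and the 3 with the highest mean TPM in each, for all D cyclins and CDK inhibitors, and 4 further genes per direction by p are named; other named genes are marked. Promoters and proteins were not analysed here.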

Additional observations from a re-analysis of the deposited data

How the results depend on the processing

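No member and none of the further cell cycle genes passed the adjusted threshold under any of the 17 alternatives run, and the smallest adjusted p of a member was 0.329, without control 2. Over all rows, where edgeR called 0, DESeq2 called 40 and the fits that left out a library called 0 to 5. Members lower at an unadjusted p under 0.05 numbered 0 with library totals alone, 1 with a mean of at least 0.1 TPM, 1 in edgeR without robust, and 0 to 2 with a library left out. With a library left out, the medians ran from -0.36 to 0.18 for mitosis, -0.17 to 0.073 for S phase, -0.65 to -0.25 for D cyclins and -0.30 to -0.14 for CDK inhibitors. Over all rows, those lower at an unadjusted p under 0.05 went from 644 to 1041 without control 3, 332 without resveratrol 1 and 222 without resveratrol 3. Whether the replicate numbers pair the libraries is not stated in the labels and was not tested. Same-numbered deviations from the group mean correlated at 0.157, 0.0741 and 0.200 across genes, and differently numbered ones at -0.154 to 0.0121. Each library correlated best with its own number. The replicate block left 0 members called, and its mitosis median was -0.065. The median over all rows was -0.079 in limma on log2(TPM + 0.5) and 0.057 with library totals alone.

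Of 488 member values under the alternatives, 71 changed sign, and 11 of 29 members kept their sign throughout. No member was called in any fit, so no sign change could be of a called gene. The cause of the changes was not tested. On log2 TPM, limma with a pseudocount of 0.5, then 0.1, then 1 gave log2 fold changes of -0.056, -0.10 and -0.032 for AURKB, -0.076, -0.12 and -0.050 for CENPE, -0.057, -0.092 and -0.039 for E2F1, -0.027, -0.011 and -0.032 for KIF20A, -0.051, -0.054 and -0.049 for MCM6 and 0.22, 0.25 and 0.19 for TYMS. With the replicate block it was -0.028 for AURKB, 0.024 for CCND3, -0.027 for CENPE and -0.015 for E2F1. With library totals alone it was 0.036 for BIRC5, 0.014 for CCNB1, 0.059 for CCND3, 0.044 for CDKN1B, 0.0063 for MCM2 and 0.066 for TYMS. Without a filter it was 0.0014 for CCNB1 and 0.011 for TYMS, and with a mean of at least 0.1 TPM 0.0077 for TYMS. With a library left out it ran from -0.19 to 0.39 for AURKB, -0.21 to 0.14 for BIRC5, -0.47 to 0.15 for BUB1B, -0.35 to 0.34 for CCNB1, -0.34 to 0.15 for CCNB2, -0.29 to 0.20 for CCND3, -0.13 to 0.028 for CDKN1B, -0.83 to 0.38 for CENPE, -0.42 to 0.35 for CENPF, -0.29 to 0.28 for E2F1, -0.47 to 0.16 for KIF11, -0.24 to 0.47 for KIF20A, -0.23 to 0.073 for MCM2, -0.076 to 0.33 for MCM5, -0.013 to 0.079 for MCM6, -0.51 to 0.38 for TOP2A, -0.55 to 0.20 for TPX2 and -0.24 to 0.11 for TYMS. The scaled CPM values were chosen after seeing the data. UBE2C, AURKB, CDK1, CCNB2, BIRC5 and E2F1 had under 100 reads in every library, as had BUB1 and PLK1, which limits their precision.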
